A study of Homo sapiens with 6 samples.

Results

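The CC chemokines described here are 8 genes that fibroblasts are known to be able to express, CCL2, CCL3, CCL5, CCL7, CCL8, CCL11, CCL20 and CCL26. They were taken by gene symbol, and all 8 were found among the 25368 symbols of each of 2 expression tables. The tables hold RNA-seq of MRC5 cells, human embryonic lung fibroblasts immortalised with telomerase (hTERT), and the questions behind them are what the transcription factor JUN adds to fibroblasts and what inhibition of its kinase JNK takes away from fibroblasts exposed to tumour cell medium. In the first table, MRC5 were infected with adenovirus carrying an empty vector (control), wild-type JUN (JUN WT) or a JUN whose JNK phosphorylation sites were replaced by alanine (JUN AA). In the second table, untreated MRC5 stand beside induced cancer-associated fibroblasts (iCAFs), which are MRC5 kept for 7 days in medium conditioned by the breast cancer line MDA-MB-231, and beside iCAFs given 1 µM of the selective JNK inhibitor JNK-IN-8 (JNKi) for 48 hours. DMSO is named as the vehicle, but the labels do not say whether the iCAFs library itself received it. Each condition has 1 library, so there is no replicate error, no test and no p-value, and every difference given here compares 2 libraries. MRC5 is a single line of lung and not of breast origin, and the virus drives JUN far above its own level, which limits these cells as a model of the tumour stroma.

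CC chemokines are small secreted proteins named for a pair of adjacent cysteines. They bind heparan sulfate on cells and matrix and attract leukocytes through G-protein-coupled receptors, with several ligands sharing a receptor and several receptors sharing a ligand. In fibroblasts, interleukin-1 and tumour necrosis factor are known to induce CCL2 and CCL20 through NF-κB and AP-1, the dimer in which JUN acts, interferons induce CCL5 and CCL8, and interleukin-4 and interleukin-13 induce the eotaxins CCL11 and CCL26 through STAT6.

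Of the 8 genes, 4 lie side by side on the forward strand of chromosome 17 within 66129 bp in GRCh37, the build to which the reads were mapped. In order they are CCL2 (chr17:32582293-32584227), CCL7 (chr17:32597240-32599261), CCL11 (chr17:32612761-32615353) and CCL8 (chr17:32646454-32648421), and the canonical transcript of each has 3 exons. Further along the same chromosome, on the reverse strand, are CCL5 (chr17:34198495-34207797) and CCL3 (chr17:34415602-34417515). CCL20 lies on chromosome 2 (chr2:228670455-228682280, forward strand) and CCL26 on chromosome 7 (chr7:75398851-75419214, reverse strand). Promoter entries of RefSeq (GRCh38.p14) were matched for 5 of the 8 genes, and the 250 bases before each start were found once as an exact match in GRCh37. No entry was matched for CCL2, CCL5 and CCL11, so their promoters were not searched. The promoters of CCL20 and CCL3 are shown because these genes had 2 of the 3 largest differences of the group in iCAFs, that of CCL7 because it holds the AP-1 heptamer, and that of CCL26 because this gene was more than 2-fold higher in JUN WT. Each is written 5′ to 3′ on the gene's own strand. Capitals mark the NF-κB match in CCL20 and the AP-1 match in CCL7. The stretches are chr2:228678308-228678557 for CCL20, chr17:34417490-34417739 for CCL3, chr17:32596990-32597239 for CCL7 and chr7:75419065-75419314 for CCL26, the last of which precedes a start 17535 bp upstream of that of the canonical transcript.
CCL20: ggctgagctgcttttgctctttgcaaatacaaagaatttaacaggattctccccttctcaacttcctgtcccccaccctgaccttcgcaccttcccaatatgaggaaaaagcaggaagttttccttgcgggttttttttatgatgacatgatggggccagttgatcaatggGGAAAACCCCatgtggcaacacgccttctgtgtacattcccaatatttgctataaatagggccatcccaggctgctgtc
CCL3: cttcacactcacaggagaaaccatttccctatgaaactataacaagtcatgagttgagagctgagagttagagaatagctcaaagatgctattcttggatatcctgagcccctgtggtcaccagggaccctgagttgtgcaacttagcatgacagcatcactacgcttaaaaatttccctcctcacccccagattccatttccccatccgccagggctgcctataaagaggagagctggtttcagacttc
CCL7: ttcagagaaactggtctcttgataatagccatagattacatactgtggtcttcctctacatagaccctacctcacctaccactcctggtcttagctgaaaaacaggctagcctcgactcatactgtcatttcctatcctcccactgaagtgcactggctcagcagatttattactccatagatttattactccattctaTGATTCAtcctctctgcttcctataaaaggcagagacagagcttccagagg
CCL26: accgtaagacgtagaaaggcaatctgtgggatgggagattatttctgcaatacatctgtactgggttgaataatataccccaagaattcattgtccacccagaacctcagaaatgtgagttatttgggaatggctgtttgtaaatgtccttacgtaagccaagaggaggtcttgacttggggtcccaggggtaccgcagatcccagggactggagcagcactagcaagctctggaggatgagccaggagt

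Letters were searched on both strands for AP-1 (TGANTCA), for NF-κB (by its name) and for the interferon-stimulated response element (GAAA, 2 free bases, GAAA). CCL7 held TGATTCA from 51 to 45 bp before its start, and CCL20 held GGAAAACCCC, an NF-κB match on the reverse strand, from 79 to 70 bp before its start. The other matched promoters, including that of CCL8, held none of the 3 in this window. Among 35116 promoters of the same length, 6.57% held the AP-1 letters, 9.96% the NF-κB letters and 3.02% the interferon element. A match of letters is a description and not evidence of binding.

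Levels are given as FPKM, fragment numbers divided by exon length and library size, which allows levels of different genes to be set side by side within a table. The deposited FPKM summed to between 359944 and 613184 per library, with JUN AA highest, and between 15568 and 16872 genes were above 0. JUN itself reached 4543 FPKM in JUN WT, compared with 25.5 in the control and 291 in JUN AA, so JUN AA differs from JUN WT both in the mutation and in the amount of JUN mRNA, and these cannot be told apart. JUN was at 55.3 FPKM in iCAFs, close to the 57.1 of MRC5, and at 21.1 after JNKi. All 10 fibroblast markers were at or above 1 FPKM in every library, and they summed to 4040 FPKM in iCAFs, 5640 in MRC5 and 6252 after JNKi. The 9 leukocyte markers summed to between 0 and 2.08 FPKM, with PTPRC at most 0.015 FPKM and all 9 listed at 0 in iCAFs. The sum of 2.08 was that of JUN AA, and lysozyme (LYZ) made up 2.03 of it. The 7 epithelial markers summed to 33.2 FPKM in iCAFs, below the 39.8 of MRC5 and the 40.8 after JNKi, with the adhesion molecule CDH1 at 0 throughout. Most of the sum in iCAFs came from the keratins KRT18 (24.8 FPKM) and KRT8 (7.06 FPKM). The 4 endothelial markers summed to at most 0.55 FPKM in the first table, and in the second to 2.73 FPKM in MRC5, 3.88 with conditioned medium and 10.7 with JNKi added, where TEK alone had 10.4 FPKM. The part of these markers in the results was not tested. In bulk RNA, a lower level may come from fewer expressing cells or from less RNA per cell, which cannot be told apart.

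CCL2 made up most of the CC chemokine mRNA in the second table, whereas CCL2, CCL5 and CCL26 shared the pool in the control of the first. The summed FPKM of all 28 CC chemokine genes found was 195 in iCAFs, compared with 16.2 in MRC5 and 41.9 after JNKi. CCL2 accounted for 91.4% of that sum in MRC5 and for 81.3% in iCAFs, and for 90.9% after JNKi. In iCAFs, CCL20 followed with 14.0% and CCL3 with 3.65%. In the first table the sum was 24.8 FPKM in JUN WT, compared with 8.62 in the control and 7.89 in JUN AA. The control divided into 35.8% CCL2, 31.6% CCL5 and 24.3% CCL26, and JUN WT into 35.0% CCL5, 23.5% CCL2, 23.2% CCL26 and 10.1% CCL3. In JUN AA CCL5 was listed at 0, and CCL26 took 47.2%, CCL2 27.8% and CCL3 21.4%. The number of the 8 genes at or above 1 FPKM was 4 in JUN WT and 3 in both the control and JUN AA, and it was 3 in iCAFs and 2 in both MRC5 and iCAFs+JNKi.

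**Figure D1:**
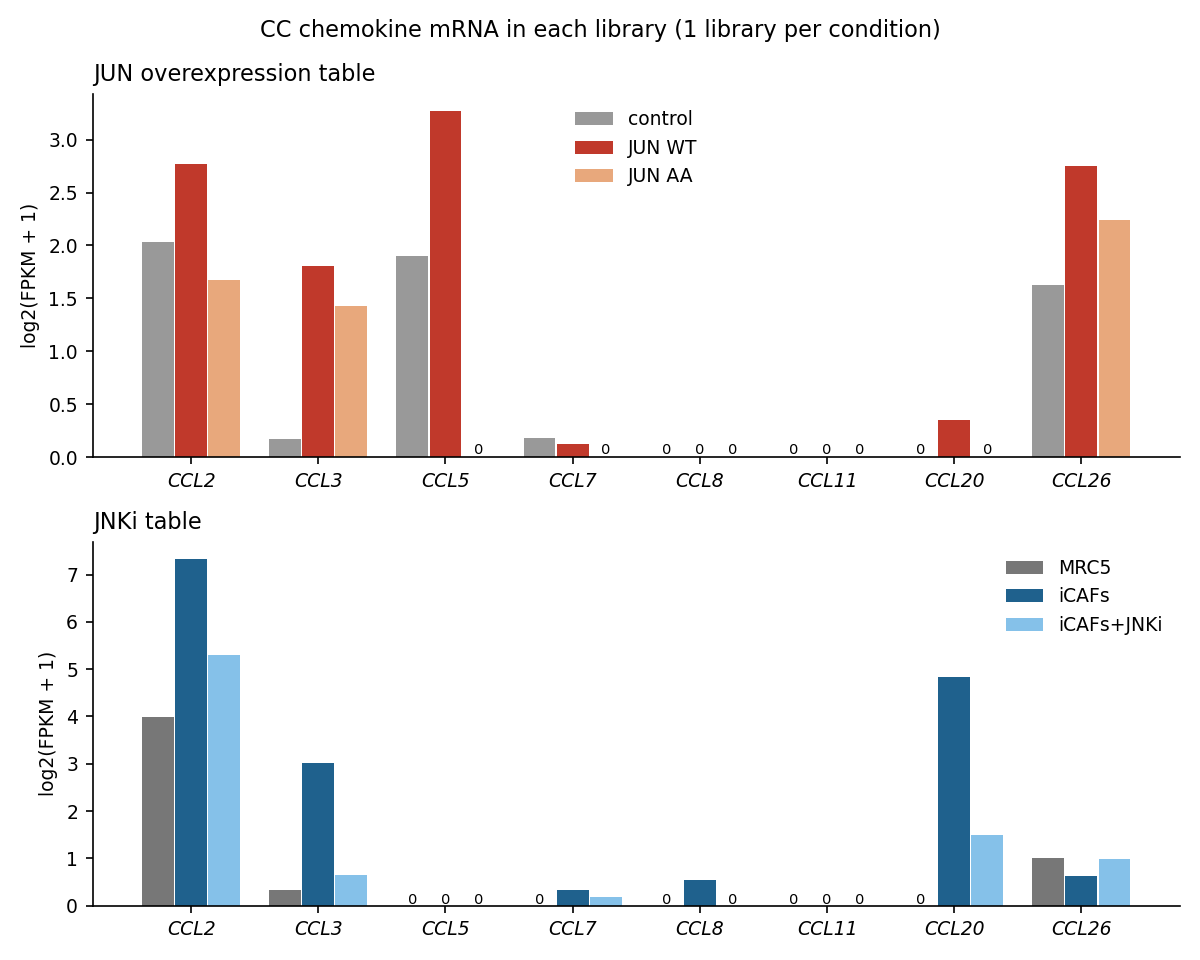
Levels of the 8 CC chemokines as log2(FPKM + 1), 1 bar per library, with the JUN overexpression table above and the JNKi table below on separate scales and 0 written where a gene was listed at 0. CCL2, CCL3 and CCL20 stood highest in iCAFs, CCL2, CCL3, CCL5 and CCL26 stood highest in JUN WT, and CCL11 was at 0 in all 6 libraries.

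**Figure D2:**
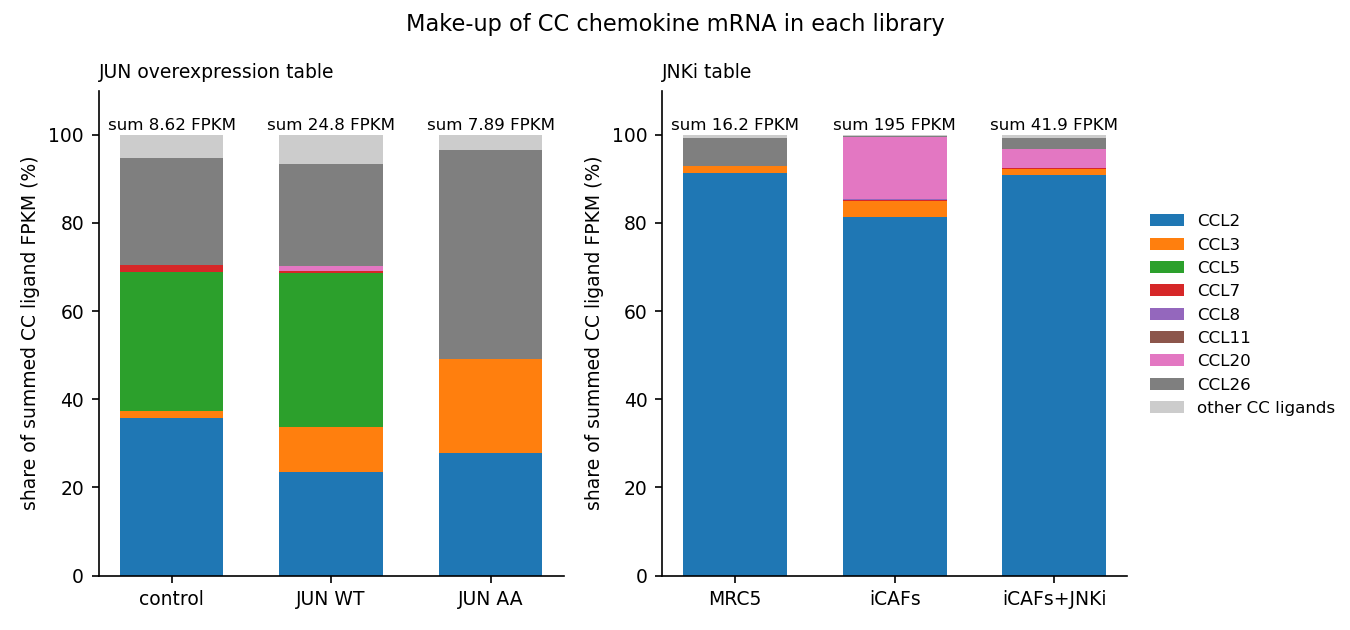
Share (%) of the summed FPKM of 28 CC chemokine genes taken by each of the 8 genes and by the other 20 together in each library, with the sum written above each bar. CCL2 took 81.3% to 91.4% in the JNKi table, and in the JUN overexpression table the green part of CCL5 was absent from JUN AA.

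The monocyte attractants are CCL2, CCL7 and CCL8, which act through receptors that include CCR2. CCL2 reached 158.9 FPKM in iCAFs, compared with 14.8 in MRC5 and 38.1 after JNKi. It was thus 10.7 times higher in iCAFs than in MRC5, a difference of 3.34 in log2(FPKM + 1), the scale of all differences below, on which genes at low levels change less than their plain ratio, and the level in iCAFs exceeded that of 98.5% of all genes listed for the library. With JNKi, 24.0% of the iCAF level remained, a difference of -2.03, and the level was still 2.57 times that of untreated MRC5, a difference of 1.30. In the first table CCL2 reached 5.83 FPKM in JUN WT, compared with 3.08 in the control and 2.19 in JUN AA. The differences were 0.74 for JUN WT and -0.36 for JUN AA, both against the same control library and both under 2-fold, and 1.10 for JUN WT against JUN AA. The last of these is 0.91 once differences are centred on the median gene and so depends on the scaling.

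The neighbours of CCL2 were near or at 0 although they code for closely related proteins. CCL7 was at 0.092 FPKM in JUN WT, below the 0.13 of the control, and at 0 in JUN AA, and in the second table at 0.26 in iCAFs, 0.14 after JNKi and 0 in MRC5. CCL8 was listed at 0 in 5 libraries and at 0.46 FPKM in iCAFs. Both were thus highest in iCAFs within the second table, but at levels that stand for few fragments: if the canonical transcript length applies, about 4.0 for CCL7 and 7.6 for CCL8. CCL11, which lies between them, was at 0 in every library. CCL13, a further chemokine gene beyond CCL8, did not exceed 0.20 FPKM, and CCL1 was at 0.

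**Figure D3:**
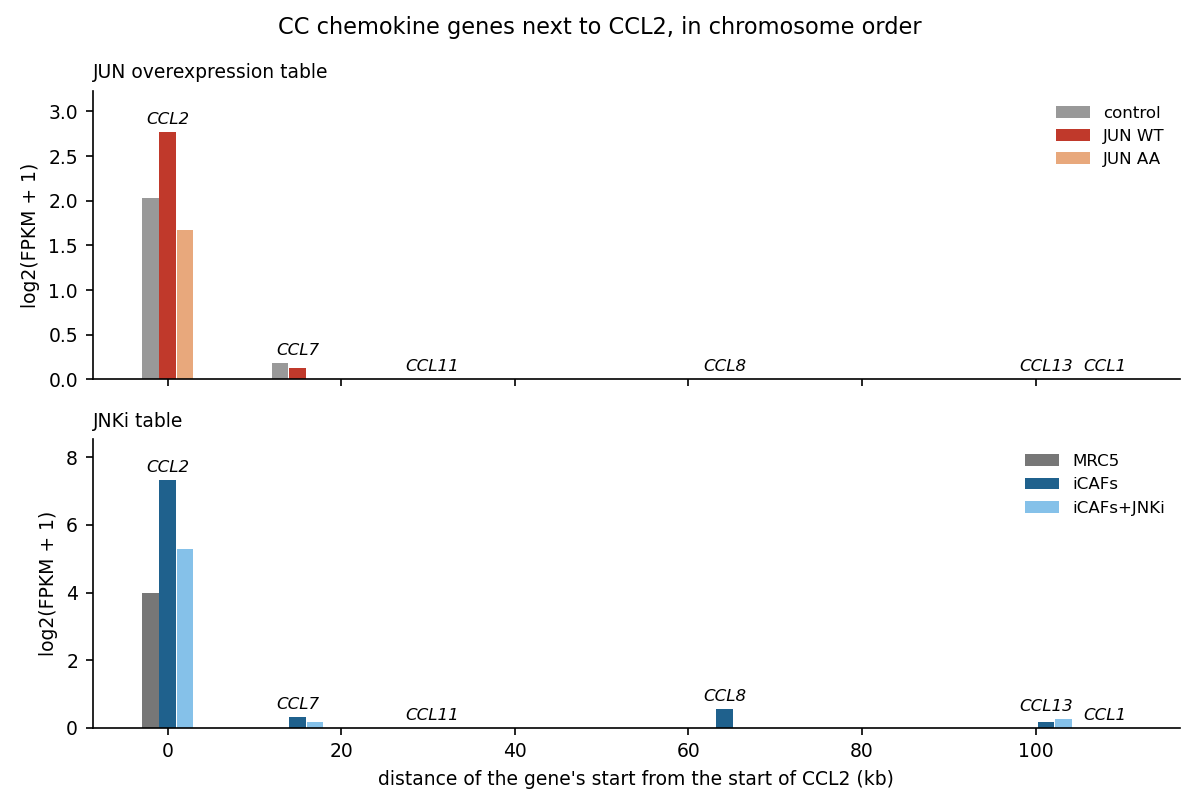
Level in log2(FPKM + 1) of the chemokine genes on chromosome 17 against the distance of each start from the start of CCL2 in kb, 1 bar per library drawn side by side around that distance, and no bar where a gene was at 0. Only CCL2 exceeded 1 FPKM among these 6 genes in any library, and CCL7 and CCL8 stayed below 0.5 FPKM.

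CCL3 and CCL5 attract monocytes and T cells and are best known as products of leukocytes. CCL3 reached 2.51 FPKM in JUN WT, compared with 0.12 in the control and 1.69 in JUN AA. Both JUN libraries were above the control they share, with differences of 1.64 for JUN WT and 1.26 for JUN AA, and the 2 JUN libraries differed from each other by 0.38. In the second table CCL3 reached 7.14 FPKM in iCAFs, compared with 0.26 in MRC5 and 0.56 after JNKi. The difference between iCAFs and MRC5 was 2.69, and with JNKi 7.88% of the iCAF level remained, a difference of -2.38. The MRC5 value would stand for about 3.9 fragments, so the size of that difference is imprecise. CCL3 overlaps the antisense gene CCL3-AS1 and is nearly identical to CCL3L1 and CCL3L3, and its values are uncertain, since the strand setting and the treatment of shared reads are not given in the sources used here. CCL3L1 was at 0.37 FPKM in JUN WT and 0 in the other libraries, and CCL3L3 was at 0 throughout.

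CCL5 separated the 2 forms of JUN more than any other of the 8 genes. It reached 8.66 FPKM in JUN WT, compared with 2.72 in the control and 0 in JUN AA, and it was listed at 0 in MRC5, iCAFs and iCAFs+JNKi. JUN WT was 3.18 times the control, a difference of 1.38. Against the control JUN AA gave -1.90, and JUN WT against JUN AA gave 3.27, but both values depend on the pseudocount because JUN AA was at 0. None of 14 housekeeping genes was at 0 in any library, but the lowest of them in JUN AA was at 3.80 FPKM. They therefore cannot show whether a gene at the control level of CCL5 could be listed at 0. Among the genes listed as inducers, IFNB1 followed the same order as CCL5. IFNB1, which codes for interferon beta, reached 11.3 FPKM in JUN WT, compared with 0.38 in the control and 0 in JUN AA. In the second table IFNB1 was at 0 in all 3 libraries, as CCL5 was. The part of IFNB1 in the CCL5 result was not tested. CCL5 overlaps an lncRNA gene on the opposite strand.

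CCL20 attracts dendritic cells and T cells that carry CCR6. It was listed at 0 in MRC5, at 27.4 FPKM in iCAFs and at 1.80 in iCAFs+JNKi, and in the first table at 0.28 in JUN WT and 0 in both other libraries. The difference between iCAFs and MRC5 was 4.83, a value that depends on the pseudocount, and with JNKi 6.55% of the iCAF level remained, a difference of -3.35. Among the 11780 genes that averaged 1 FPKM or more over the second table, 9 genes including CCL20 had a difference as high or higher in iCAFs against MRC5, and 6 genes including CCL20 had one as low or lower with JNKi. The corresponding numbers were 20 and 35 for CCL2 and 33 and 20 for CCL3. CCL20 and CCL3 passed this filter only through iCAFs, so their high places were partly set by the filter. Both rankings also share the iCAFs library. DAW1 and SLC19A3, neighbouring genes, were below 1 FPKM in all 6 libraries.

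CCL11 and CCL26 are eotaxins, which attract eosinophils through CCR3, and only CCL26 was expressed. CCL26 reached 5.74 FPKM in JUN WT, compared with 2.095 in the control and 3.72 in JUN AA. JUN WT was 2.74 times and JUN AA 1.78 times the shared control, with differences of 1.12 and 0.61, and the former is 0.97 once differences are centred on the median gene. Its level in the second table was 0.56 FPKM in iCAFs, below the 1.01 of MRC5 and the 1.00 after JNKi. CCL26 was the only member with a lower value in iCAFs than in MRC5, with a difference of -0.37, and the only one with a higher value after JNKi, with a difference of 0.36. Both are under 2-fold and would rest on about 5.0 to 9.2 fragments per library. The inducers of CCL26, IL4 and IL13, were at 0 in every library, while their shared receptor chain IL4R stood at 62.1 FPKM after JNKi, above the 37.8 of iCAFs and the 15.2 of MRC5.

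Counted over all 8 genes, with a log2 difference of 1 as 2-fold, 3 were higher and 0 lower in iCAFs than in MRC5, namely CCL2, CCL3 and CCL20. Of the 11780 genes that averaged 1 FPKM or more, 1.94% were 2-fold higher and 1.71% lower in this comparison. With JNKi, 0 were higher and the same 3 genes were lower than in iCAFs, beside 2.25% of all genes higher and 1.97% lower. In the same comparison 6 of the 10 fibroblast markers were 2-fold higher and 0 lower, with a median difference of 1.12, and their part in the chemokine result was not tested. Against MRC5, iCAFs+JNKi had CCL2 and CCL20 higher, 2 of 8, and 0 lower, beside 3.28% and 3.53% of all genes. These 3 comparisons share libraries, so the lower values with JNKi and the higher values in iCAFs are not separate observations. Among the libraries of the second table, 3 of the 8 genes passed the filter on low values, and CCL3 and CCL20 did so only through iCAFs, so these 2 had to differ between libraries. The median difference over all 8 genes was 0.44 in iCAFs, -0.35 with JNKi and 0.092 for iCAFs+JNKi against MRC5, beside -0.061, -0.099 and -0.16 for all genes that passed.

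Within the first table, 3 of 8 genes were higher in JUN WT than in the control, CCL3, CCL5 and CCL26, and 0 were lower. Of 10311 genes that averaged 1 FPKM or more, 6.92% were higher and 3.39% lower. In JUN AA 1 gene was higher than the control, CCL3, and 1 was lower, CCL5, beside 5.29% and 3.77% of all genes. JUN WT against JUN AA had CCL2 and CCL5 higher and 0 of 8 lower, beside 6.65% and 5.61%. Here 4 of the 8 genes passed the filter, and CCL3 did so through the JUN WT and JUN AA libraries. The median difference over the 8 genes was 0.55 for JUN WT against control, 0 for JUN AA against control and 0.37 between them. The medians of all genes that passed the filter were 0.15, -0.015 and 0.18. Marker lists moved in the same libraries. Against the control, 0 of the 10 fibroblast markers were 2-fold higher and 4 lower in JUN WT, with a median difference of -0.75, and 1 was higher and 3 were lower in JUN AA, with a median of -0.45. The 7 epithelial markers summed to 57.1 FPKM in the control, to 21.7 with JUN WT and to 19.9 with JUN AA. The keratins KRT18 (36.7, 15.2 and 9.87 FPKM) and KRT8 (19.3, 5.80 and 9.65 FPKM) made up most of these sums. The part of these markers in the chemokine differences was not tested. The balance of all genes depended on the scaling. JUN AA had 545 genes higher and 389 lower than the control, but 338 higher and 957 lower with FPKM rescaled to equal sums. This rescaling moved the median of all genes that passed the filter from -0.015 to -0.29. JUN WT against JUN AA gave 686 and 578 as deposited and 1770 and 364 rescaled. JUN WT against control gave 714 and 350, and 436 and 522 once centred on the median gene. The same centring turned 265 higher and 232 lower into 323 and 182 for JNKi in iCAFs, and 386 and 416 into 517 and 267 for iCAFs+JNKi against MRC5. Beside that rescaled median of -0.29, the rescaled differences of JUN AA against control were 1.59 for CCL3, 0.43 for CCL26, -0.66 for CCL2 and -2.70 for CCL5, each with the sign it had before.

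**Figure D4:**
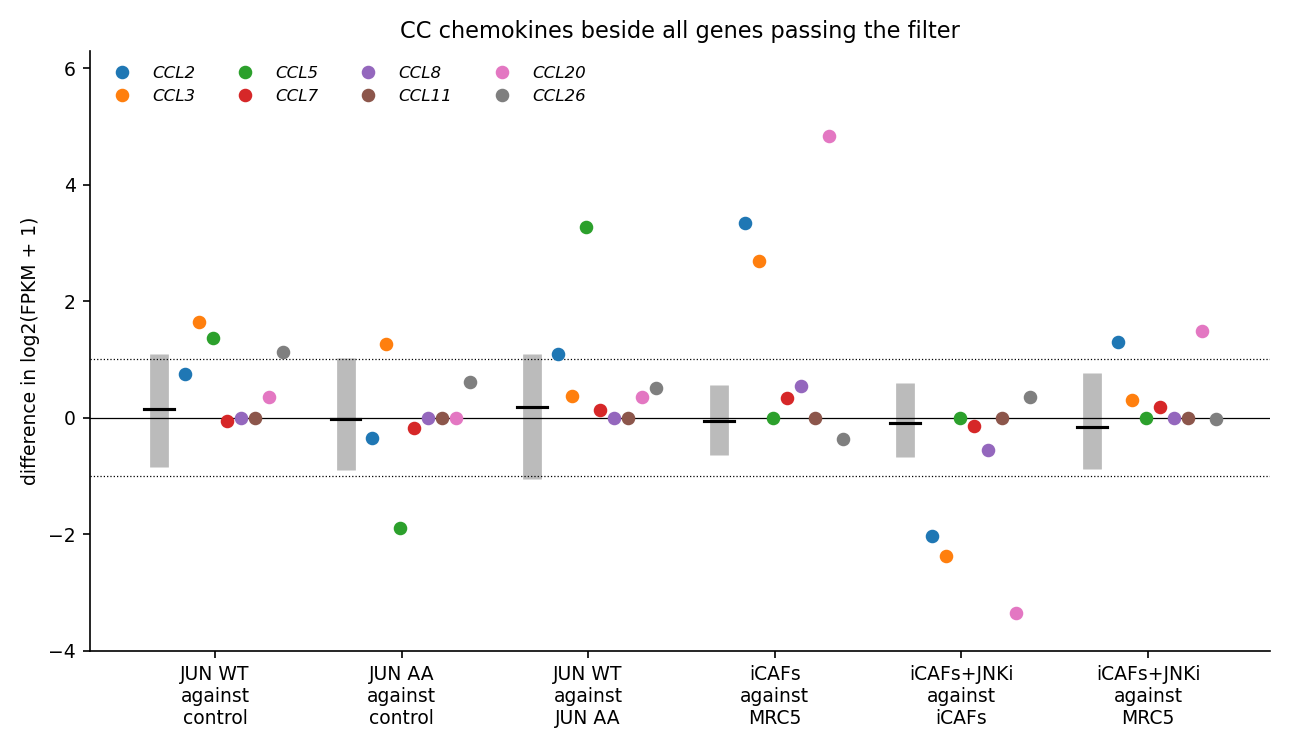
Differences in log2(FPKM + 1) of the 8 genes (coloured points) in the 6 comparisons, beside the range from the 5th to the 95th percentile of all genes passing the filter (grey bar) and their median (black line), with dotted lines at 2-fold. CCL2, CCL3 and CCL20 lay above the grey bar in iCAFs against MRC5 and below it with JNKi, and CCL5 stood at 3.27 in JUN WT against JUN AA.

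For each gene that passed the filter, the 3 genes with the nearest differences were sought, as the Euclidean distance over the log2 differences of the tables in which it passed. This is a description over 3 or 6 libraries that share controls. Nearest to CCL2 among 10020 genes over 4 differences were SOD2, the mitochondrial superoxide dismutase (distance 1.03), NFKBIA, the inhibitor of NF-κB (1.23), and IER3, an early response gene (1.23). SOD2 reached 454 FPKM in iCAFs, compared with 82.2 in MRC5 and 156 after JNKi. Nearest to CCL3 over the same differences were BEX1 (1.02), BCL2A1, an inhibitor of apoptosis (1.13), and G0S2, an inhibitor of lipolysis (1.25). CCL20 passed only in the second table, where CSF3, the granulocyte colony-stimulating factor (0.46), PTGS2, the inducible cyclooxygenase (0.89), and IL1A, interleukin-1 alpha (1.15), were nearest over 2 differences. CSF3 reached 22.8 FPKM in iCAFs, compared with 0 in MRC5 and 0.80 after JNKi, and PTGS2 was at 41.5 FPKM in iCAFs, 0.27 in MRC5 and 6.61 after JNKi. CCL5 passed only in the first table, where IFIH1, a sensor of viral RNA (0.043), GPNMB, a membrane glycoprotein (0.18), and PARP9, an interferon-stimulated gene (0.28), were nearest. IFIH1 reached 9.43 FPKM in JUN WT, compared with 3.10 in the control and 0.079 in JUN AA. For CCL26 the nearest were MARS2 (0.019), ARL2BP (0.024) and PDHA1 (0.035), all in the first table.

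**Figure D5:**
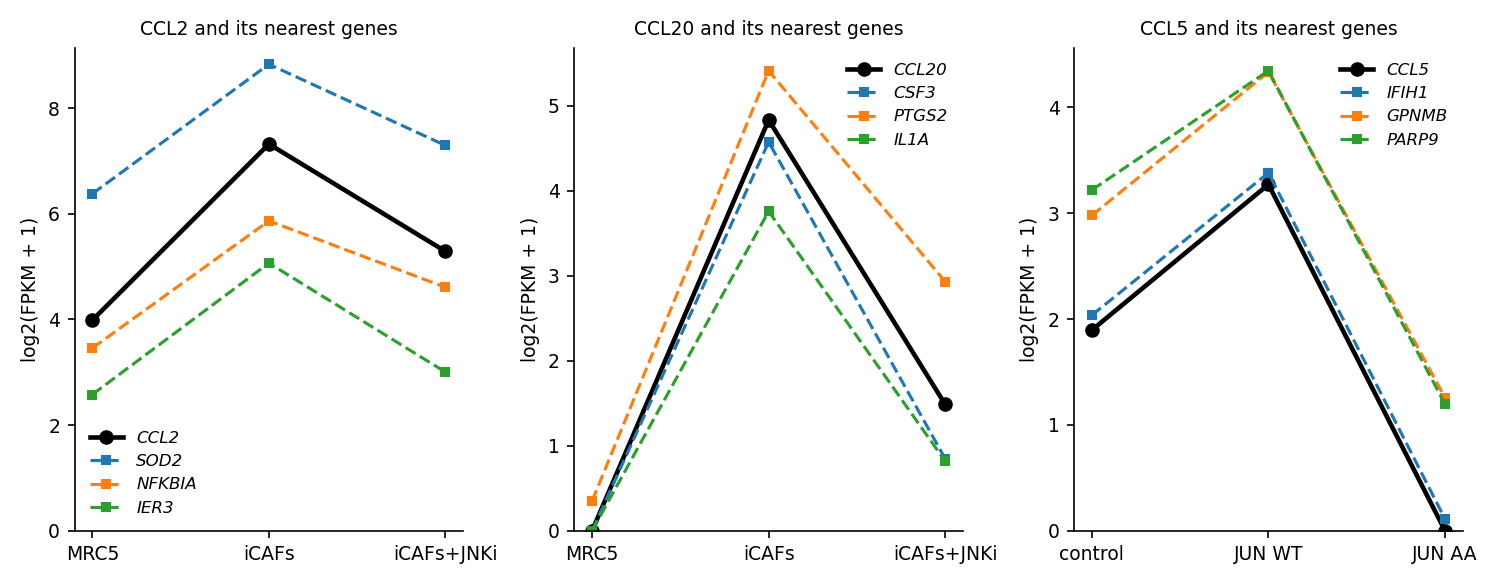
Levels in log2(FPKM + 1) of CCL2, CCL20 and CCL5 (black) and of the 3 genes nearest to each (dashed) in the 3 libraries of a table. CCL20 and its neighbours were at or near 0 in MRC5 and highest in iCAFs, and CCL5 and IFIH1 were at 0 and 0.079 FPKM in JUN AA.

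The rest of the CC chemokine family was near 0. Of 20 further ligand genes, 15 were at 0 in all libraries of the first table and 16 in all of the second. Only CCL25, a ligand of CCR9, reached 1 FPKM, with 1.03 in JUN WT beside 0.42 in the control and 0 in JUN AA. It was the 1 gene of the 20 past 2-fold in any comparison, with a difference of 1.02 for JUN WT against JUN AA. In that comparison 6.65% of all genes that passed the filter were 2-fold higher, but 0 of the 20 passed it. The CCL25 value was close to the 2-fold limit and depends on the pseudocount because JUN AA was at 0. The receptors were low too. Of 14 receptor genes, 6 were at 0 throughout the first table and 9 throughout the second, and CCR2, CCR4, CCR6, CCR8 and CCR9 were at 0 in all 6 libraries. CCR10, a receptor of skin-homing T cells, reached 4.25 FPKM in JUN WT, compared with 1.20 in the control and 3.14 in JUN AA, and was at 1.71 FPKM in iCAFs, 1.16 in MRC5 and 1.10 after JNKi. Its difference of 1.25 in JUN WT against control was the only one of the receptors past 2-fold. That is 1 of 14 beside 6.92% of all genes higher, so it is close to the share of all genes. Only 2 of the 14 passed the filter from which that share was taken. CCR1 reached 1.73 FPKM in JUN WT and CCR7 1.04 FPKM in iCAFs.

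Of 26 genes for signals known to induce CC chemokines, 4 were 2-fold higher and 0 lower in iCAFs than in MRC5, namely IL1A, IL1B, NFKBIA and IL4R, beside 1.94% and 1.71% of all genes. With JNKi 0 were higher and 4 lower, namely IL1A, IL1B, NFKBIA and JUN, beside 2.25% and 1.97% of all genes. IL1B reached 194 FPKM in iCAFs, compared with 0 in MRC5 and 25.9 after JNKi, IL1A was at 12.5, 0 and 0.76 FPKM in the same libraries, and NFKBIA at 57.3, 9.97 and 23.4 FPKM. Each of these 3 was highest in iCAFs and lower with JNKi, as were CCL2, CCL3 and CCL20. TNF and IFNG were at 0 in these 3 libraries. In the first table, JUN, IFNB1 and NFKB1 were among the genes of this list that exceeded the control 2-fold in JUN WT, whereas IL4R was lower. In JUN AA, JUN was higher, and IL4R and IRF1 were among the genes that were lower. IL1A and IL1B did not exceed 0.23 FPKM there, and NFKB1 reached 3.55 FPKM in JUN WT, compared with 1.14 in the control and 1.77 in JUN AA. The part of these signals in the chemokine differences was not tested.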

How the data were processed

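RNA-seq of 6 MRC5 libraries, 1 per condition, was used. Per the labels and the paper's methods, the authors aligned reads to hg19 (HISAT2 2.1.0), and StringTie 2.1.1 gave the FPKM per gene that they deposited. The annotation and strand setting are not given in the sources used here. The 2 tables were normalised separately and compared only within a table. All value columns matched a library by name. Rows sharing a symbol were reduced to the one with the highest mean.

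Differences were computed on log2(FPKM + 1), which understates changes of low genes, in Python 3.11.15 with numpy 2.4.6 and pandas 2.3.3, and figures were drawn with matplotlib 3.10.9. Shares of all genes used a mean of at least 1 FPKM over the 3 libraries of a table. The difference step was run on simulated data with large planted changes and little noise. That run checks the arithmetic only and not the precision of single libraries. Read depth is not stated. In the second table, low values of genes with a single GENCODE transcript were multiplied by its length. The products gathered at steps of 0.0525 to 0.0555 FPKM kb, taken as 1 fragment. Within 0.002 of the first 3 steps lay 66 to 70 values, and 18 to 21 lay midway between steps. The step was sought in a preset range, so its size and the excess at the first step are partly set by that choice. Fragment numbers of the 8 genes were then found with the canonical length and are approximate. The first table showed no clear step, so its precision is unknown. Named were all 8 genes, members of the fixed lists that reached 1 FPKM, and the 3 nearest genes. Values of other listed genes, among them CCL3L1, CCL3L3, CCL13, TNF and PTPRC, and of neighbouring genes were named after they were seen. The members and lists were chosen with earlier results of these data known. Alternatives were a smaller pseudocount (0.1), library sums set to 1000000, centring on the median gene, summed rows and other filters. Some items are not reported here.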

Additional observations from a re-analysis of the deposited data

Results flagged for a closer look

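CCL5 went in opposite directions in the JUN libraries. Relative to the control at 2.72 FPKM it was higher in JUN WT, at 8.66 FPKM, and lower in JUN AA, at 0, so that JUN WT minus JUN AA came to 3.27 in log2(FPKM + 1). With 1 library per condition this difference was not tested. The JUN libraries also differed in JUN mRNA, with 4543 FPKM in JUN WT and 291 in JUN AA.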

How the results depend on the processing

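Of 15 calls of a 2-fold difference among the 8 genes over the 6 comparisons, 15 were kept with a pseudocount of 0.1, with rescaled FPKM and with summed rows, and 13 with centring, which lost CCL26 in JUN WT against control and CCL2 in JUN WT against JUN AA and left 1 gene higher in the latter. No called difference changed sign. The difference of CCL26 in iCAFs+JNKi against MRC5, -0.014, became 0.089 rescaled and 0.15 centred. A pseudocount of 0.1 moved the median over the 8 genes to 1.15 for JUN WT against control, 0.77 for JUN WT against JUN AA, 2.17 for iCAFs against MRC5, -1.33 for iCAFs+JNKi against iCAFs and 0.43 for iCAFs+JNKi against MRC5. It also raised the genes lower in JUN AA than in the control to 2, by adding CCL7. Those higher in iCAFs than in MRC5 rose to 5, by adding CCL7 and CCL8. The same pseudocount added CCL20 to the genes higher in JUN WT, both against the control and against JUN AA. It further added CCL8 to those lower with JNKi than in iCAFs, and CCL7 to those higher in iCAFs+JNKi than in MRC5. All these additions were at levels near 0. Rescaling moved the median to 0.66 for JUN WT against JUN AA, 0.93 for iCAFs against MRC5 and -0.70 for iCAFs+JNKi against iCAFs. Rescaling also added CCL8 to the genes higher in iCAFs than in MRC5 and to those lower with JNKi than in iCAFs. Of 48 single differences, 24 moved by over 0.25 with the smaller pseudocount and 20 with rescaling. Values against a library at 0 moved most, with CCL20 in iCAFs against MRC5 at 8.11 and CCL5 in JUN WT against JUN AA at 6.45 with a pseudocount of 0.1. Counts of all genes that changed by over 1.5 times were as follows. For JUN WT against control, 714 higher became 1229 with that pseudocount, 458 at a mean of 5 FPKM or more and 436 centred, and 350 lower became 527 with that pseudocount. For JUN AA against control, 545 higher became 338 rescaled, and 389 lower became 629 with that pseudocount and 957 rescaled. For JUN WT against JUN AA, 686 higher became 1151 with that pseudocount, 1770 rescaled, 411 centred and 438 at 5 FPKM, and 578 lower became 364 rescaled. For iCAFs against MRC5, 202 lower became 356 with that pseudocount and 128 at 5 FPKM. For iCAFs+JNKi against iCAFs, 265 higher became 411 rescaled and 169 at 5 FPKM, and 232 lower became 386 with that pseudocount and 147 at 5 FPKM. For iCAFs+JNKi against MRC5, 386 higher became 581 rescaled, and 416 lower became 706 with that pseudocount, 267 centred and 263 at 5 FPKM. The cause of these changes was not tested. No paired analysis was possible because each condition has 1 library, and for the same reason no replicate could be left out.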

Other observations

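All 8 genes of a list whose products trim or bind CC chemokines passed the filter in both tables. Against the control, 3 were 2-fold higher and 1 was lower in JUN WT, beside 6.92% and 3.39% of all genes, and 2 were higher and 1 was lower in JUN AA, beside 5.29% and 3.77%. MMP1 and MMP3, matrix metalloproteinases known to cleave monocyte chemoattractants, were highest in JUN WT in the first table. MMP1 reached 414 FPKM in JUN WT, compared with 31.1 in the control and 155 in JUN AA, and MMP3 was at 43.4, 3.61 and 3.21 FPKM in the same libraries. MMP14, a membrane-bound metalloproteinase, went the other way, with 677 FPKM in the control, 319 with JUN WT and 256 with JUN AA. In iCAFs MMP1 and MMP3 were the 2 of 8 that were 2-fold higher than in MRC5, and 0 were lower, beside 1.94% and 1.71% of all genes, with MMP1 at 1042 FPKM in iCAFs, 344 in MRC5 and 455 after JNKi. MMP3 had 290, 33.7 and 268 FPKM in the same libraries.

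SDC4, a heparan sulfate proteoglycan that can hold chemokines at the cell surface, reached 74.5 FPKM in iCAFs, compared with 53.2 in MRC5 and 29.2 after JNKi. TNFAIP6, whose product TSG-6 binds chemokines, had 0.48 FPKM in MRC5, 0.86 in iCAFs and 4.09 with the inhibitor. DPP4, a peptidase that trims the amino end of several CC chemokines, had 81.8 FPKM in MRC5, 103 in iCAFs and 188 with the inhibitor. Of the 8 genes, 1 was 2-fold higher and 2 were lower with JNKi than in iCAFs, beside 2.25% and 1.97% of all genes. In JUN WT 6 of the 8 were 2-fold higher than in JUN AA and 0 lower, beside 6.65% and 5.61% of all genes. The median difference over the 8 was 1.26, beside 0.18 for all genes that passed the filter. SDC4 (1.05) and DPP4 (1.15) were close to the 2-fold limit, and this count was not repeated with other scalings.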
